A study of Oryctolagus cuniculus with 34 samples.

Results

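The genes described here are 51 genes of rabbit supraspinatus muscle, most of them immune genes: receptors, cytokines, complement components, Fc receptors, chemokine genes, TNF-related genes and the STAT and IRF transcription factors. They were chosen by the form of their symbol (CD followed by a digit, IL followed by a digit, TLR, TNF, CSF, FCGR, NLRP, STAT and the like, without CD36, CCL14 and IL10RA) among the genes with a count, scaled to the library's total (CPM), above 1 in at least 1 library. They make up 51 of the 12937 genes tested and of the 23669 genes in the count table. A symbol was at hand for 3310 of the genes tested, so other immune genes of the rabbit are not analysed here. Of the 51, 17 had their symbol from a table cut off in the order of gene identifiers, which is blind to the results. The other 34 had theirs only through the listing of a co-expression module (called module 1 below) that was built on these same libraries, so how they move together is part of how they were found, and the 2 sources are counted apart. C1QL3, a secreted C1q-like protein of neurons and other cells, and CD2AP, an adaptor protein of the actin cytoskeleton, meet the rule by their symbols alone. CD34, CD44, CD82, CD93, CD200 and CD248 are grouped with CD2AP as stromal, endothelial and adhesion antigens, and are not particular to immune cells.

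The study examined RNA from the supraspinatus of 17 female New Zealand White rabbits, about 6 months old. The RNA came from a piece of the posterior lateral region alone, which the paper chose as the most affected region in this model. In each animal the tendon of the left supraspinatus was cut (tenotomy), left detached for 8 weeks and then repaired, and both shoulders were taken 1, 2, 4 or 8 weeks after the repair. The right shoulder was not operated on, although its label reads sham, and is called the control here. The groups of 1, 2, 4 and 8 weeks held 4, 5, 4 and 4 rabbits, each with a repair and a control library of poly-A RNA. The repair library of rabbit 3, taken after 8 weeks, was left out of the fit, which used 33 libraries. The paper states that an experimental sample of 8 weeks was removed at quality control, without naming the rabbit. The library of rabbit 3 held 8756033 counts and 8701 genes over 1 CPM, both the lowest of all 34 libraries. Every control muscle belongs to an animal that also carried a detached and repaired muscle, no group holds detached but unrepaired muscle, and no animal was left unoperated. The groups therefore compare repaired with contralateral muscle, and what tenotomy did cannot be told apart from what repair did.

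Injured muscle is entered by neutrophils, then by monocytes that become macrophages. These cells clear dead fibres, signal to satellite cells and fibroblasts, and normally withdraw as repair proceeds. Complement proteins tag debris, with C1q starting the classical pathway and C1s its protease, and the fragment C5a calling in phagocytes through the receptor C5AR1. Fc receptors bind antibody-coated particles, Toll-like receptors sense microbial or cell-derived molecules, and the interleukin and TNF families carry messages between leukocytes and stroma.

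The 33 libraries held between 9220035 and 28395188 counts on genes, with a median of 12127768. Those of 1 and 8 weeks form one library series by their titles (15 libraries, median 19343431) and those of 2 and 4 weeks another (18 libraries, median 10625163), so 1 against 2 weeks is also a comparison of series. Markers of skeletal muscle fibres were present in every library, with the sum of 9 genes between 9734 and 100379 CPM. Values below are CPM scaled by the trimmed mean of M values (TMM), and those of several libraries stand in the order of rabbit number, which is 5, 6, 7 and 8 for 1 week, 59, 60, 61, 62 and 64 for 2 weeks, 63, 66, 67 and 68 for 4 weeks, and 1, 2, 3 and 4 for 8 weeks, with 3 missing after repair. The repair library of rabbit 59 stood apart and is given beside the results it touches.

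By limma, a minority of the 51 genes rose in repaired muscle at 1 and 2 weeks, and none passed the test at 4 or 8 weeks. Among those called at both times were the cytokine receptor IL4R, the TNF-induced gene TNFAIP8 and the myeloid checkpoint ligand CD200. At 2 weeks the share called was near that of other genes with a symbol from the same source. More passed at 1, 2 and 4 weeks with the rabbit as a block, and at 2 weeks with edgeR and DESeq2. The median log2 fold change (log2FC, repair over control) of the 51 members was 1.03, 1.28, 0.94 and 0.21 at the 4 successive times, where the median of all 12937 genes was 0.05, 0.06, 0.05 and 0.01. For the 17 members found by identifier order it was 0.80, 0.70, 0.35 and 0.06 (other genes so found 0.01, 0.02, 0.04 and 0.01). For the 34 found through module 1 it was 1.06, 1.43, 1.03 and 0.34 (other genes found there 0.22, 0.43, 0.17 and 0.04). Genes are termed DE below at an adjusted p under 0.05 (limma-voom, Benjamini-Hochberg over all 12937 genes) and an absolute log2FC above 1. By that rule 8 of 51 members rose at 1 week, where 4.72% of all genes tested did, and 6 of 51 rose at 2 weeks, where 4.82% of all genes did. TNFAIP8L3 and FCGR1A passed 1 CPM in no control library and entered the test through their repair libraries, and without such genes 7 of 49 rose at 1 week (3.98% of 11646 genes) and 6 of 49 at 2 weeks (4.40%). At 4 weeks 0 of 51 were DE by limma (0.0618% of all genes), with 9 at an unadjusted p under 0.05, 2 DE by edgeR and 4 by DESeq2. The share of all genes at that unadjusted p is not given here, so the 9 are not read as a response. At 8 weeks 0 of 51 were DE by limma, edgeR or DESeq2 (0.00773% of all genes by limma), with 0 at an unadjusted p under 0.05. No member fell at any time point by this rule, where 1.44%, 0.951%, 0 and 0 of all genes did. By the adjusted p alone, whatever the size, 9 members were higher at 1 week (6.81% of all genes) and 9 at 2 weeks (7.95%), and 0 were lower (6.88% and 7.92%). By the same rule 0 were called at 4 weeks (0.0773% of all genes higher and 0.0464% lower) and 0 at 8 weeks (0.00773% and 0). Single libraries moved the limma counts in both directions: leaving out 1 library at a time gave 2 (control of rabbit 7) to 14 DE members (2-week repair of rabbit 59) at 1 week, and 2 (repair of rabbit 59) to 22 (repair of rabbit 64) at 2 weeks. The share of all genes DE and higher moved with them, from 1.55% to 8.89% and from 0.639% to 11.0%. RNA came from pieces of muscle with all their cell types, so a change in the number of cells of a type and a change in RNA per cell cannot be told apart in any of these values.

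The rabbit can also enter the fit as a block, since both shoulders come from one animal. With it, 18 members were DE at 1 week (17 higher, where 9.68% of all genes were higher, and IRF4 lower), 33 were higher at 2 weeks (13.0% of all genes), 2 at 4 weeks (1.55%) and 0 at 8 weeks. Pairing by a correlation between the shoulders of a rabbit gave 9, 9, 0 and 0 DE members at these times, IRF4 among them at 1 and 2 weeks. Of all genes 8.82%, 8.61%, 0.711% and 0.00773% were then DE in either direction. edgeR gave 7, 36, 2 and 0 members at the 4 times, against 4.63%, 14.7%, 1.51% and 0.00773% of all genes, and DESeq2 gave 10, 37, 4 and 0, against 6.04%, 14.8%, 2.62% and 0.0232%. A member said below not to pass did not pass limma without the block, called the main fit, and its value with the block is given where the blocked fit called it. Some of these were also called without a block, by edgeR, DESeq2 or limma with other settings. The blocked fit was not repeated with libraries left out, so how far its calls rest on single rabbits was not tested.

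A simpler reading asks whether every repair library lay above every control library. That held for 23 of 51 members at 1 week (16.1% of all genes tested), 3 at 2 weeks (4.10%), 4 at 4 weeks (5.19%) and 2 at 8 weeks (4.24%). The reverse held for C1QL3 at 1 week (13.3%) and for no member at 2, 4 or 8 weeks (3.73%, 3.93% and 3.32%). The 3 members at 2 weeks were C1S, IL4R and TNFAIP8, the 4 at 4 weeks CD34, CD48, IL33 and TNFAIP8, and the 2 at 8 weeks CD34 and TNFAIP8L3. Counting by source, 5 of the 17 members found by identifier order were DE at 1 week, against 4.07% of the other genes with a symbol so found, and 1 of 17 at 2 weeks, against 4.82%. Of the 34 found through module 1, 3 were DE at 1 week and 5 at 2 weeks, against 6.85% and 12.4% of the other genes found there. The 2-week shares of members, 5.88% by identifier order and 14.7% through module 1, are thus near those of the other genes found the same way. So is the 1-week share of 8.82% through module 1.

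**Figure D1:**
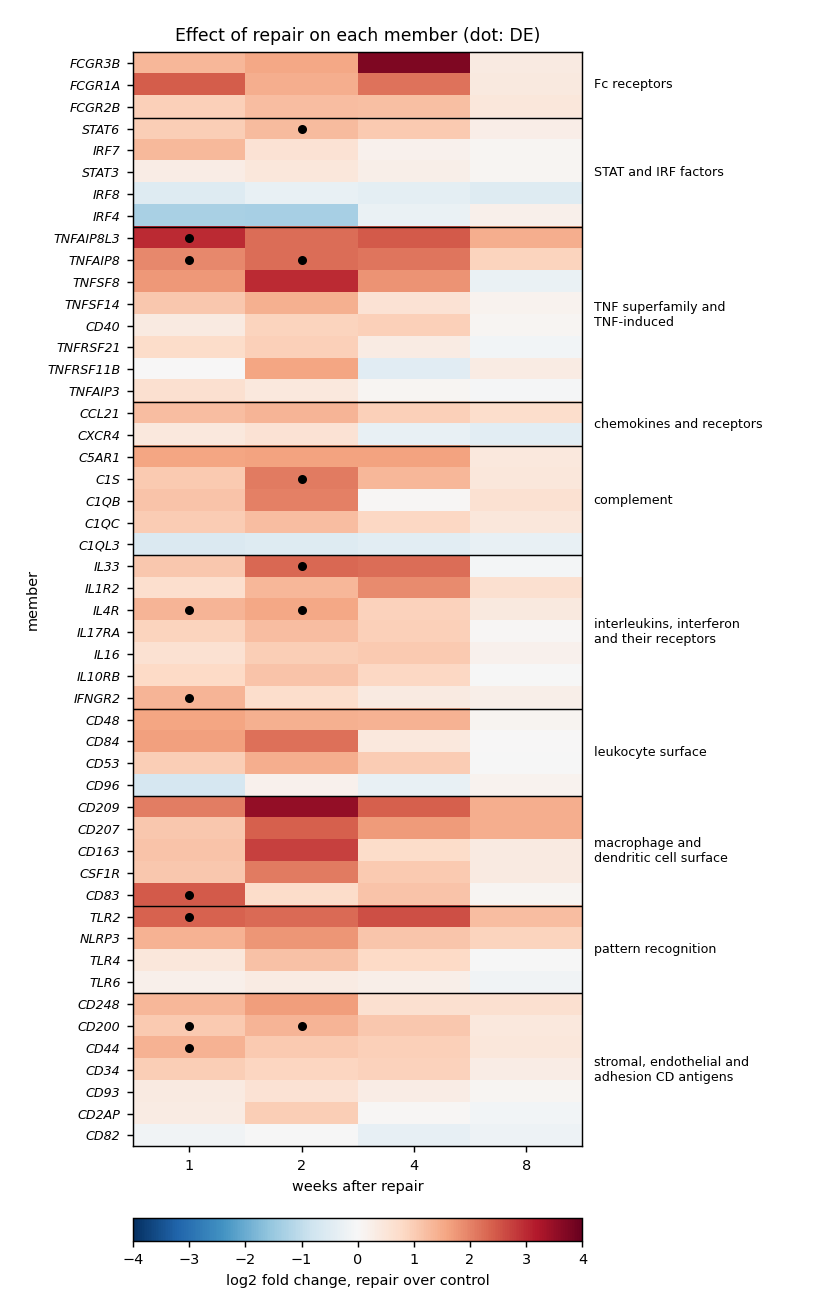
Each row is 1 of 50 members, grouped by role, and each column a time point after repair. Colour gives the log2FC of repair over control on a scale from -4 (blue) to 4 (red), and a black dot marks a DE member. The 14 dots stand at 1 week (8) and 2 weeks (6), and the column of 8 weeks is pale, with log2FC between -0.53 and 1.46.

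The size of the difference varied widely between rabbits. Taking each rabbit's repaired shoulder over its own control (log2 ratio of CPM + 0.5), the median over the 51 members was 0.68, 0.50, 1.40 and 0.75 at 1 week. At 2 weeks it was 2.70 in rabbit 59, 0.42 in rabbit 60, 0.11 in rabbit 61, 1.83 in rabbit 62 and -0.06 in rabbit 64. Over the members found by identifier order alone the 2-week medians were 1.89, 0.17, 0.09, 1.46 and -0.16. So at 2 weeks 2 rabbits had most members raised, with 43 of 51 members above a log2 ratio of 1 in rabbit 59 and 38 in rabbit 62, while 8, 1 and 1 were above it in rabbits 60, 61 and 64. At 4 weeks the medians were 1.47, 0.94, 0.40 and 0.02, and at 8 weeks 0.14, 0.30 and 0.21. The share of all genes tested above a log2 ratio of 1 was 27.1% in rabbit 59 and 15.9% in rabbit 62, and at most 4.04% in the other 3 rabbits of 2 weeks.

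**Figure D2:**
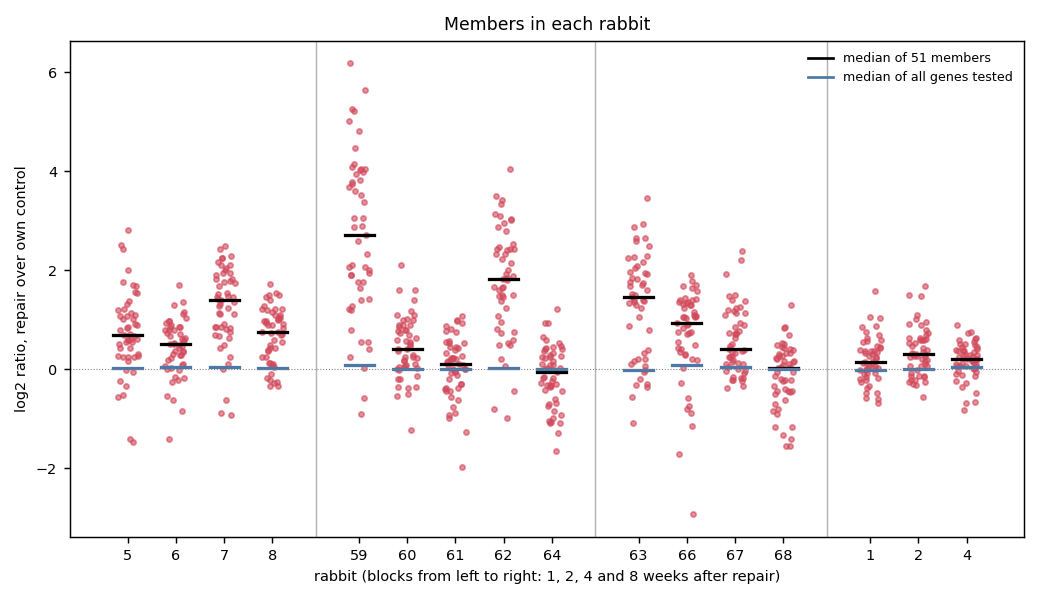
Each point is a member in one rabbit, with the log2 ratio of the repaired over the own control shoulder on the vertical axis and the rabbits on the horizontal axis, in blocks for 1, 2, 4 and 8 weeks. Black bars are the medians of 51 members and blue bars those of all genes tested. At 2 weeks rabbits 59 and 62 have medians of 2.70 and 1.83 and the other 3 lie between -0.06 and 0.42, while the blue bars stay between -0.01 and 0.09 in every rabbit.

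At 2 weeks the repair library of rabbit 59 was the highest of its group for 47 of 51 members and that of rabbit 64 the lowest for 35. At 1 week the repair library of rabbit 7 was the highest for 37 of 51. Most marker sums of other cells were also highest in the repair library of rabbit 59 within its group: macrophage, fibroblast, endothelial (779 CPM, next 376), mural (663, next 405) and T cell (12.2, next 8.86), while the adipocyte sum was highest in rabbit 62 (857 against 665) and the muscle fibre sum was lowest in rabbit 59 (13087). In rabbit 7 the macrophage, fibroblast and mural sums were the highest of 1 week. The summed CPM of 7 macrophage markers was 501 in the repair library of rabbit 59, 135 in that of rabbit 62 and 9.75 in that of rabbit 64, with controls of 2 weeks at 8.50 to 14.7. The sum of 7 fibroblast markers was 56573 in rabbit 59, 15382 in rabbit 62 and 597 in rabbit 64, against 706 to 1190 in the controls. At 1 week the macrophage sum was 43.5 to 123 after repair and 18.5 to 39 in controls, with the highest value in rabbit 7. CD163 and CSF1R are in both the macrophage list and the 51 members, and no marker of either list was at 0 in all libraries. The part of cell makeup in the members' changes was not tested. Without the repair libraries of rabbits 7 and 59, an alternative chosen after the values were seen, 10 members were DE at 1 week (9 higher and IRF4 lower, with 6.24% of all genes higher), 2 at 2 weeks (C1S and IL4R, with 0.636%) and 0 at 4 weeks (0.909%) or 8 weeks (0.00805%), and the median log2FC of the members was 0.70 at 1 week and 0.59 at 2 weeks.

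All 7 interleukin and interferon genes and receptors had a log2FC above 0 at 1, 2 and 4 weeks, and 2 were DE at 1 week (IL4R and IFNGR2) and 2 at 2 weeks (IL4R and IL33). IL4R is the alpha chain of the receptors for IL-4 and IL-13, cytokines known for driving macrophages towards a repair state. IL4R stood at 10.9, 10.5, 14.6 and 8.33 CPM after repair at 1 week, against 5.13, 4.6, 3.44 and 4.21 CPM in the controls. Controls had 5.3, 5.18, 4.56, 3.8 and 4.79 CPM of IL4R at 2 weeks, and repaired muscle had 37.3, 12.2, 10.1, 14.8 and 6.13 CPM. The groups did not overlap at either time, and the repair library of rabbit 59 stood highest. The log2FC was 1.37 ± 0.35 (SE, adjusted p = 0.0139) at 1 week, with all 4 rabbits higher, and 1.54 ± 0.37 (SE, adjusted p = 0.0121) at 2 weeks, with all 5 higher. Later, IL4R lay between 5.18 and 13.3 CPM after repair and 3.39 and 5.49 in controls at 4 weeks, and between 5.16 and 7.84 against 4.04 and 5.77 at 8 weeks, so that the groups overlapped. Its call at 1 week was lost without the control library of rabbit 7 (adjusted p = 0.0667) and with all 34 libraries, and that at 2 weeks with all 34 libraries or 2 weeks fitted alone.

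IL33 is an alarmin that stromal and endothelial cells release when damaged. For IL33, the libraries at 1 week were at 1.43, 1.05, 1.42 and 1.21 CPM in controls and 2.1, 2.29, 6.08 and 1.69 CPM after repair. The 2-week values of IL33 were 0.831, 0.414, 0.777, 0.308 and 0.98 CPM in controls and 10.5, 0.909, 1.94, 6.57 and 1.41 CPM after repair. The 1-week groups did not overlap, whereas those of 2 weeks did, with rabbits 59 and 62 far above the others. The log2FC was 1.09 ± 0.52 (SE, adjusted p = 0.145) at 1 week and 2.3 ± 0.70 (SE, adjusted p = 0.0291) at 2 weeks, and each rabbit was higher on the repaired side at both times. With the rabbit as a block IL33 was DE at 1 week too (log2FC 1.32 ± 0.36, adjusted p = 0.0164). Repair libraries of IL33 gave 1.99, 2.2, 1.6 and 0.783 CPM at 4 weeks and control libraries 0.328, 0.224, 0.414 and 0.209 CPM. These did not overlap, yet the log2FC of 2.24 ± 0.96 (SE, adjusted p = 0.252) did not pass the test. At 8 weeks IL33 was 0.799 to 1.25 after repair and 0.577 to 1.86 in controls. Its call at 2 weeks was lost without the repair library of rabbit 59 and without 5 other libraries of that time point, the highest adjusted p being 0.103. IFNGR2, the second chain of the interferon-gamma receptor, had a log2FC of 1.35 ± 0.39 (SE, adjusted p = 0.0232) at 1 week and 0.70 ± 0.37 (SE, adjusted p = 0.167) at 2 weeks, and its 1-week call was lost without any of 4 libraries of that time (adjusted p up to 0.0749). IL10RB, IL16, IL17RA and IL1R2 had log2FC between 0.61 and 0.90 at 1 week and between 0.99 and 1.33 at 2 weeks, without passing the test at either. With the rabbit as a block these 4 were DE at 2 weeks, with IL10RB at 1.45 ± 0.34, adjusted p = 0.00654, IL16 at 1.03 ± 0.21, adjusted p = 0.00431, IL17RA at 1.29 ± 0.34, adjusted p = 0.012 and IL1R2 at 1.76 ± 0.57, adjusted p = 0.029, and IL16 was DE at 4 weeks (1.07 ± 0.25, adjusted p = 0.0312).

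Among the 8 TNF-related genes, the one DE at both 1 and 2 weeks was TNFAIP8, a TNF-induced gene of the TIPE family with a known part in cell survival. TNFAIP8 at 1 week was at 0.855, 1.5, 0.786 and 0.714 CPM in controls and, in repaired muscle, at 4.89, 2.8, 5.02 and 2.43 CPM. TNFAIP8 stood at 5.52, 1.92, 0.778, 3.49 and 1.41 CPM after repair at 2 weeks, against 0.312, 0.725, 0.388, 0.616 and 0.327 CPM in the controls. Controls had 0.546, 0.224, 0.828 and 0.417 CPM of TNFAIP8 at 4 weeks, and repaired muscle had 3.59, 1.27, 2.98 and 1.76 CPM. Repair and control libraries did not overlap at 1, 2 or 4 weeks. The log2FC was 1.93 ± 0.45 (SE, adjusted p = 0.00812) at 1 week, 2.23 ± 0.61 (SE, adjusted p = 0.0208) at 2 weeks and 2.13 ± 0.68 (SE, adjusted p = 0.143) at 4 weeks. At 4 weeks TNFAIP8 did not pass the main fit and was DE with the rabbit as a block (2.12 ± 0.54, adjusted p = 0.0464), edgeR and DESeq2. At 8 weeks it was 0.776 to 2.03 CPM after repair and 0.365 to 1.28 in controls, which overlapped. The call at 1 week held with each of the 33 libraries left out in turn (highest adjusted p 0.0480), and that at 2 weeks was lost without the repair library of rabbit 59 (adjusted p = 0.0814).

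TNFAIP8L3, of the same family, was among the 2 members that passed 1 CPM in no control library, so it could be tested only because it was high after repair. For TNFAIP8L3, the libraries at 1 week were at 0.57, 0.222, 0.262 and 0.357 CPM in controls and 6.99, 1.86, 3.74 and 1.19 CPM after repair. The groups did not overlap, and the log2FC was 2.98 ± 0.97 (SE, adjusted p = 0.0411), a call lost without any of 7 of the 8 libraries of 1 week (adjusted p up to 0.125). At 2 weeks rabbit 59 was at 11.2 CPM after repair and rabbit 60 at 0, and the log2FC of 2.23 ± 1.2 (SE, adjusted p = 0.177) did not pass, where the fit with the block gave 3.2 ± 0.78, adjusted p = 0.00796. TNFRSF21, a death receptor, passed the adjusted p at both times but not the size limit, with a log2FC of 0.74 ± 0.25 (SE, adjusted p = 0.0489) at 1 week and 0.95 ± 0.26 (SE, adjusted p = 0.0219) at 2 weeks, and with the block it was DE at 2 weeks (1.02 ± 0.19, adjusted p = 0.00323).

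TNFRSF11B encodes osteoprotegerin, a decoy receptor for RANKL. The 1-week values of TNFRSF11B were 2.28, 1.83, 0.374 and 1.79 CPM in controls and 0.499, 1.02, 1.91 and 1.37 CPM after repair. Repair libraries of TNFRSF11B gave 9.9, 0.606, 1.56, 3.15 and 0.414 CPM at 2 weeks and control libraries 0.312, 0.932, 0.68, 0.411 and 0.98 CPM. The groups overlapped at both times, and at 2 weeks the repair library of rabbit 59 was the highest, followed by that of rabbit 62. The log2FC was 0.01 ± 0.66 (SE, adjusted p = 0.996) at 1 week and 1.58 ± 0.80 (SE, adjusted p = 0.156) at 2 weeks. At 4 weeks TNFRSF11B lay between 0.199 and 0.763 CPM after repair and 0.449 and 0.983 in controls. CD40, TNFAIP3, TNFSF8 and TNFSF14 did not pass the main fit at any time point, with log2FC from 0.36 to 1.73 at 1 week and from 0.41 to 2.99 at 2 weeks. With the block, TNFSF8 was DE at 1 week (2.15 ± 0.69, adjusted p = 0.0321) and 2 weeks (4.16 ± 1.07, adjusted p = 0.010) and TNFSF14 at 2 weeks (1.87 ± 0.60, adjusted p = 0.0274). Without a block, edgeR and DESeq2 called CD40, TNFSF8 and TNFSF14 at 2 weeks. They also called TNFRSF11B, TNFAIP8L3 and TNFRSF21 then. TNFAIP3 encodes A20, a brake on NF-kappaB, and had a log2FC of 0.63 ± 0.25 (SE, adjusted p = 0.0874) at 1 week.

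Of the 5 genes named as complement, the protease C1S was DE at 2 weeks and the others at no single time point, while with the rabbit as a block C1QB, C1QC and C5AR1 were DE at 2 weeks as well. C1S is made in muscle chiefly by stromal cells. C1S at 1 week was at 43.9, 49.5, 44.6 and 53.5 CPM in controls and, in repaired muscle, at 81.8, 98, 118 and 103 CPM. C1S stood at 868, 83.7, 72, 210.2 and 41.7 CPM after repair at 2 weeks, against 38.8, 19, 39, 25.2 and 41.5 CPM in the controls. The groups did not overlap at 1 week, and at 2 weeks they were separated by 41.7 against 41.5 CPM, with rabbit 59 far above the rest and rabbit 64 the lowest. The log2FC was 1.05 ± 0.57 (SE, adjusted p = 0.194) at 1 week, which did not pass, and 2.07 ± 0.50 (SE, adjusted p = 0.0132) at 2 weeks. The 2-week call held with each library left out in turn (highest adjusted p 0.0462) and was lost when 2 weeks was fitted alone. Controls had 29.6, 18.2, 36.5 and 26 CPM of C1S at 4 weeks, and repaired muscle had 145, 59.7, 104 and 22.2 CPM. Here rabbit 68 lay within the controls and the log2FC was 1.31 ± 0.55 (SE, adjusted p = 0.247).

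C1QB and C1QC encode chains of C1q, which tissue macrophages make. For C1QC, the libraries at 1 week were at 4.42, 5.77, 6.51 and 4.28 CPM in controls and 6.99, 10.3, 19.9 and 8.88 CPM after repair. The 2-week values of C1QC were 4.05, 3.11, 4.17, 1.03 and 2.94 CPM in controls and 47, 4.95, 2.04, 11.2 and 1.16 CPM after repair. Repair libraries of C1QC lay just above the controls at 1 week, and they overlapped at 2 weeks, with rabbits 61 and 64 below their own controls. The log2FC of C1QC was 1.01 ± 0.65 (SE, adjusted p = 0.274) at 1 week and 1.23 ± 0.89 (SE, adjusted p = 0.316) at 2 weeks. Repair libraries of C1QB gave 1.25, 2.18, 5.51 and 2.29 CPM at 1 week and control libraries 1.07, 1.44, 1.2 and 0.857 CPM. C1QB at 2 weeks was at 1.56, 0.311, 0.971, 0 and 0.545 CPM in controls and, in repaired muscle, at 9.84, 0.909, 0.972, 2.94 and 0.331 CPM. C1QB overlapped at both times, and rabbit 59 was the highest at 2 weeks, as it was for the macrophage sum. Its log2FC was 1.13 ± 0.74 (SE, adjusted p = 0.284) at 1 week and 2.02 ± 1.07 (SE, adjusted p = 0.169) at 2 weeks. With the block the 2-week log2FC was 1.95 ± 0.61, adjusted p = 0.0252 for C1QC and 1.99 ± 0.68, adjusted p = 0.036 for C1QB. The later C1QC groups overlapped too. At 4 weeks C1QC ranged from 0.880 to 16.5 CPM after repair and 1.75 to 7.87 in controls, and at 8 weeks from 7.56 to 21.4 against 6.06 to 15.6.

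C5AR1 is the receptor for C5a on neutrophils and macrophages. C5AR1 stood at 1.45, 1.27, 3.78 and 2.56 CPM after repair at 1 week, against 0.713, 1.28, 0.561 and 0.428 CPM in the controls. Controls had 0.208, 0.518, 0.0971, 0.308 and 0.545 CPM of C5AR1 at 2 weeks, and repaired muscle had 11.1, 0.707, 0.194, 2.05 and 0.0828 CPM. The groups overlapped at 1 week by 1.27 against 1.28 CPM, and at 2 weeks rabbit 64 lay below all controls while rabbit 59 was the highest. The log2FC was 1.56 ± 0.74 (SE, adjusted p = 0.139) at 1 week and 1.6 ± 1.04 (SE, adjusted p = 0.263) at 2 weeks. With the block C5AR1 was DE at 2 weeks (2.54 ± 0.93, adjusted p = 0.0476). C1QL3, which is no complement component, had a log2FC of -0.59 ± 0.26 (SE, adjusted p = 0.113) at 1 week, with repair libraries at 12.7 to 20.8 CPM all under the controls at 22.3 to 32.6. C1QL3 had fractional counts in all 33 libraries, since its reads were shared with other loci, and its values are uncertain.

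None of the 3 Fc receptors passed the main fit at a single time point. All 3 were DE at 2 weeks with the rabbit as a block and, without a block, with edgeR and with DESeq2. Limma without a block also called FCGR1A at 1 week with sample quality weights or with that time fitted alone, and DESeq2 called FCGR3B at 4 weeks. FCGR1A, the high-affinity receptor for IgG, passed 1 CPM in no control library. For FCGR1A, the libraries at 1 week were at 0.0713, 0.277, 0.337 and 0.50 CPM in controls and 1.15, 0.983, 2.61 and 1.74 CPM after repair. The 2-week values of FCGR1A were 0.312, 0.311, 0.388, 0.411 and 0.545 CPM in controls and 25.5, 1.01, 0.0972, 4.72 and 0 CPM after repair. At 1 week the groups did not overlap, and at 2 weeks the values ran from 0 in rabbit 64 to 25.5 in rabbit 59, where the log2FC turned to -0.43 with sample quality weights. The log2FC was 2.43 ± 1.15 (SE, adjusted p = 0.137) at 1 week and 1.44 ± 1.19 (SE, adjusted p = 0.388) at 2 weeks. FCGR2B, the inhibitory receptor, had a log2FC of 0.96 ± 0.75 (SE, adjusted p = 0.376) and 1.22 ± 0.97 (SE, adjusted p = 0.368) at these times. FCGR3B had 1.34 ± 0.87 (SE, adjusted p = 0.277) and 1.55 ± 1.2 (SE, adjusted p = 0.354), and 3 of its 4 control libraries at 4 weeks held no count. With the block the 2-week log2FC was 3.53 ± 0.82, adjusted p = 0.00655 for FCGR1A, 2.38 ± 0.55, adjusted p = 0.00617 for FCGR2B and 2.82 ± 0.87, adjusted p = 0.0235 for FCGR3B. FCGR3B and its relatives share sequence, and 25 of 33 libraries had fractional counts for it, so its identity is uncertain.

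CSF1R is the receptor by which macrophages receive their survival signal. Repair libraries of CSF1R gave 7.75, 15.7, 33.1 and 12.8 CPM at 1 week and control libraries 4.16, 10.9, 8.21 and 6.68 CPM. CSF1R at 2 weeks was at 2.21, 1.52, 3.24, 3.03 and 1.86 CPM in controls and, in repaired muscle, at 100.4, 3.22, 2.35, 28 and 1.88 CPM. The groups overlapped at both times, and at 2 weeks rabbits 59 and 62 stood above every control while rabbit 64 was at 1.88 CPM against 1.86 in its control. Its log2FC was 1.06 ± 0.71 (SE, adjusted p = 0.293) at 1 week and 2.08 ± 1.06 (SE, adjusted p = 0.156) at 2 weeks. With the block CSF1R was DE at 2 weeks (3.2 ± 0.62, adjusted p = 0.00349). CSF1R had fractional counts in 32 of 33 libraries. CD163 is a scavenger receptor for haemoglobin on resident and repair-type macrophages. CD163 stood at 2.45, 4.84, 10.2 and 5.72 CPM after repair at 1 week, against 1.07, 3.71, 2.73 and 2.5 CPM in the controls. Controls had 1.35, 0.828, 0.874, 0.719 and 0.436 CPM of CD163 at 2 weeks, and repaired muscle had 133, 3.54, 0.389, 19.6 and 0.331 CPM. At 2 weeks CD163 ran from 0.331 in rabbit 64 to 133 in rabbit 59. The log2FC was 1.14 ± 1.05 (SE, adjusted p = 0.464) at 1 week and 2.72 ± 1.61 (SE, adjusted p = 0.218) at 2 weeks. CD163 was DE at no time point in the main fit, and at 2 weeks with the block (4.77 ± 0.72, adjusted p = 0.00173), edgeR and DESeq2. Its log2 ratios of repaired over own control shoulder at 2 weeks were 6.18, 1.60, -0.63, 4.04 and -0.17, so rabbits 61 and 64 were lower.

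CD83, a surface marker of mature dendritic cells and activated lymphocytes, was the one macrophage or dendritic cell gene that was DE at a single time point, at 1 week. For CD83, the libraries at 1 week were at 0.285, 0.61, 0.524 and 0.643 CPM in controls and 3.94, 1.78, 3.74 and 2.75 CPM after repair. The groups did not overlap, with a log2FC of 2.45 ± 0.63 (SE, adjusted p = 0.0146), a call lost only without the control library of rabbit 7 (adjusted p = 0.0568). At 2 weeks it was 0.166 to 3.87 CPM after repair and 0.327 to 0.680 in controls, with a log2FC of 0.73 ± 0.79 (SE, adjusted p = 0.518). CD207 (langerin) and CD209 (DC-SIGN), lectins of dendritic cells and some macrophages, had log2FC of 2.38 ± 1.36 (SE, adjusted p = 0.204) and 3.52 ± 1.47 (SE, adjusted p = 0.0889) at 2 weeks, and with the block both were DE then, at 3.65 ± 0.63, adjusted p = 0.00228 and 4.53 ± 0.86, adjusted p = 0.00319. CD209 was at 34.7 CPM in the repair library of rabbit 59 and between 0.0828 and 6.30 in the other 4.

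Of the pattern recognition genes, TLR2, the receptor for lipoproteins, was DE at 1 week. The 1-week values of TLR2 were 0.214, 0.444, 0.374 and 0.286 CPM in controls and 1.6, 1.82, 2.58 and 1.33 CPM after repair. Repair and control libraries of TLR2 did not overlap then, with a log2FC of 2.37 ± 0.79 (SE, adjusted p = 0.0464). That call was lost in 19 of 33 fits that left out a library, each 1-week control among them (adjusted p up to 0.119), with all 34 libraries and with both other filters. Repair libraries of TLR2 gave 12.1, 1.01, 1.17, 2.6 and 0.414 CPM at 2 weeks and control libraries 0.208, 0.828, 0.485, 0.616 and 0.109 CPM. At 2 weeks the log2FC was 2.26 ± 0.82 (SE, adjusted p = 0.058), or 2.55 ± 0.73, adjusted p = 0.0167 with the rabbit as a block, and each rabbit was higher on the repaired side. TLR4 senses lipopolysaccharide and some endogenous ligands. TLR4 at 1 week was at 2.64, 4.44, 3.4 and 4.0 CPM in controls and, in repaired muscle, at 4.64, 4.62, 6.82 and 3.71 CPM. TLR4 stood at 25.8, 2.42, 4.47, 10.3 and 2.07 CPM after repair at 2 weeks, against 1.66, 1.97, 5.24, 3.08 and 2.94 CPM in the controls. These overlapped at both times, with rabbit 59 the highest at 2 weeks. The log2FC of TLR4 was 0.45 ± 0.46 (SE, adjusted p = 0.508) at 1 week and 1.18 ± 0.54 (SE, adjusted p = 0.115) at 2 weeks, where the block gave 1.5 ± 0.48, adjusted p = 0.0274. NLRP3, the inflammasome sensor, had 1.39 ± 0.72 (SE, adjusted p = 0.174) and 1.77 ± 0.88 (SE, adjusted p = 0.145), and was DE at both times with the block (1.59 ± 0.57, adjusted p = 0.0488 and 2.38 ± 0.71, adjusted p = 0.0196). TLR6, the partner of TLR2, had log2FC between -0.13 and 0.33 at the 4 times, and 25 libraries had fractional counts for it.

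The 2 chemokine genes did not pass the main fit at any single time point, while edgeR and DESeq2 called CCL21 at 2 weeks without a block. CXCR4 is the receptor for CXCL12 on leukocytes and progenitor cells. Controls had 8.76, 5.1, 6.51 and 6.07 CPM of CXCR4 at 1 week, and repaired muscle had 10.9, 4.3, 12.1 and 10.6 CPM. For CXCR4, the libraries at 2 weeks were at 3.53, 6.0, 6.02, 5.34 and 5.77 CPM in controls and 14.5, 11.2, 6.71, 6.23 and 4.39 CPM after repair. Repair and control libraries overlapped at both times. Its log2FC was 0.44 ± 0.35 (SE, adjusted p = 0.386) at 1 week, 0.59 ± 0.40 (SE, adjusted p = 0.286) at 2 weeks and -0.31 ± 0.39 (SE, adjusted p = 0.719) at 4 weeks, where the control of rabbit 66 was at 22.3 CPM and the other controls at 7.45 to 9.94, and without that library the log2FC was 0.03. CCL21, which attracts dendritic cells and T cells and is made by lymphatic endothelium, had log2FC between 0.71 and 1.36 at the 4 times, and with the block it was DE at 1 week (1.28 ± 0.35, adjusted p = 0.0167) and 2 weeks (1.59 ± 0.43, adjusted p = 0.0134).

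Among the transcription factors STAT6 was the one DE, at 2 weeks. STAT6 is the factor that IL-4 and IL-13 activate through IL4R, and its log2FC was 0.98 ± 0.39 (SE, adjusted p = 0.0805) at 1 week and 1.28 ± 0.44 (SE, adjusted p = 0.0457) at 2 weeks. The 2-week call was lost in 17 of 33 fits that left out a library, among them each 2-week control and the repair libraries of rabbits 59 and 62 (adjusted p up to 0.166), and with 2 weeks fitted alone. With the rabbit as a block STAT6 was DE at 1 week as well (1.0 ± 0.31, adjusted p = 0.026). IRF7, an interferon-induced factor, was at 17.7 CPM in the repair library of rabbit 5 and at 1.35 to 5.16 in the other 3 repair libraries of 1 week, and was DE then with the block (1.52 ± 0.31, adjusted p = 0.00352).

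STAT3 transmits signals of the IL-6 family. The 1-week values of STAT3 were 72.1, 64.5, 62.6 and 77.6 CPM in controls and 86.8, 78.6, 87.6 and 84.7 CPM after repair. Repair libraries of STAT3 gave 116, 101, 67.8, 79.2 and 64.8 CPM at 2 weeks and control libraries 79.7, 70.4, 58.4, 56.1 and 47.1 CPM. The groups of 1 week were just apart, with 78.6 CPM the lowest after repair and 77.6 the highest in controls, and those of 2 weeks overlapped. The log2FC of STAT3 was 0.29 ± 0.19 (SE, adjusted p = 0.28) at 1 week and 0.44 ± 0.16 (SE, adjusted p = 0.0531) at 2 weeks. IRF4, a factor of lymphocytes and macrophages, was the member with the lowest log2FC at 1 and 2 weeks. Its log2FC was -1.3 ± 0.50 (SE, adjusted p = 0.074) at 1 week, with repair libraries at 0.182 to 0.641 CPM and controls at 0.499 to 1.5, and -1.32 ± 0.53 (SE, adjusted p = 0.080) at 2 weeks, and with the block it fell at 1 week (-1.2 ± 0.43, adjusted p = 0.0483). IRF4 was also DE at 1 and 2 weeks with the rabbit as a correlation, and at 2 weeks with sample quality weights. IRF8, which directs monocyte development, had log2FC of -0.53 ± 0.45 (SE, adjusted p = 0.418) and -0.29 ± 0.56 (SE, adjusted p = 0.736).

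The 4 leukocyte surface genes did not pass the main fit at any single time point. Without a block, edgeR and DESeq2 called CD48, CD53 and CD84 at 2 weeks, and DESeq2 called CD48 at 1 week. CD48, CD53 and CD84, carried by most blood cells, had log2FC between 0.98 and 1.64 at 1 week and between 1.42 and 2.20 at 2 weeks. With the block CD48 was DE at 1 week (1.76 ± 0.49, adjusted p = 0.0168) and 2 weeks (2.15 ± 0.57, adjusted p = 0.0116), as was CD84 (1.81 ± 0.60, adjusted p = 0.0363 and 3.11 ± 0.79, adjusted p = 0.00953), and CD53 was DE at 2 weeks (2.33 ± 0.75, adjusted p = 0.0275). CD96, a receptor of T and NK cells, had a log2FC of -0.68 ± 0.31 (SE, adjusted p = 0.125) at 1 week and 0.19 ± 0.33 (SE, adjusted p = 0.702) at 2 weeks. The 3 T cell markers (TRBC1, ITGAL and RASGRP1) summed to 8.13 to 13.5 CPM after repair and 10.1 to 12.8 in controls at 1 week. With limma 0 of 3 passed at any single time point, with 1 at an unadjusted p under 0.05 at 1 week (4302 of all 12937 genes).

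Of the 7 stromal and endothelial CD antigens, CD200 and CD44 were DE at 1 week and CD200 at 2 weeks. CD200, a ligand on stromal and endothelial cells that restrains myeloid cells, is the ligand of CD200R. CD200 at 1 week was at 2.64, 2.99, 3.18 and 2.14 CPM in controls and, in repaired muscle, at 4.09, 7.28, 5.33 and 6.5 CPM. CD200 stood at 9.77, 3.33, 3.89, 7.74 and 2.24 CPM after repair at 2 weeks, against 2.18, 1.55, 2.72, 1.75 and 1.52 CPM in the controls. At 1 week the groups did not overlap, and at 2 weeks they did, through rabbit 64. The log2FC was 1.03 ± 0.31 (SE, adjusted p = 0.0317) at 1 week and 1.35 ± 0.40 (SE, adjusted p = 0.0273) at 2 weeks, and every rabbit was higher on the repaired side at both. Its calls were lost without any of 7 libraries at 1 week and any of 5 at 2 weeks, with adjusted p up to 0.0844 and 0.105.

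CD44 is the main receptor for hyaluronan and is found on leukocytes, fibroblasts and satellite cells. Controls had 6.27, 6.65, 6.17 and 6.36 CPM of CD44 at 1 week, and repaired muscle had 13.2, 12.8, 28.3 and 15.4 CPM. For CD44, the libraries at 2 weeks were at 15.7, 5.59, 6.02, 6.16 and 3.7 CPM in controls and 54.3, 6.36, 9.14, 22.8 and 4.64 CPM after repair. The 1-week groups did not overlap, whereas at 2 weeks the control of rabbit 59 was within the repair range. The log2FC was 1.38 ± 0.47 (SE, adjusted p = 0.0493) at 1 week, close to the threshold and lost in 27 of 33 fits that left out a library (adjusted p up to 0.153), and 1.05 ± 0.50 (SE, adjusted p = 0.131) at 2 weeks, where it was DE with the block (1.23 ± 0.29, adjusted p = 0.00655). CD34 marks endothelial and fibro-adipogenic progenitor cells. The 1-week values of CD34 were 28.2, 23.7, 25.9 and 28.6 CPM in controls and 65.9, 43.2, 73.4 and 37.6 CPM after repair. Repair libraries of CD34 gave 126, 21, 44.3, 77.1 and 14.9 CPM at 2 weeks and control libraries 29.8, 23.1, 25.8, 20.03 and 18.5 CPM. CD34 libraries of repair and control did not overlap at 1, 4 or 8 weeks, and they overlapped at 2 weeks. The log2FC of CD34 was 1.0 ± 0.39 (SE, adjusted p = 0.0787) at 1 week, 0.87 ± 0.35 (SE, adjusted p = 0.0826) at 2 weeks, 0.94 ± 0.40 (SE, adjusted p = 0.249) at 4 weeks and 0.31 ± 0.41 (SE, adjusted p = 0.999) at 8 weeks. DESeq2 called CD34 at 1 and 2 weeks, and edgeR at 2 weeks. CD93, an endothelial and myeloid lectin, and CD2AP passed the adjusted p at 2 weeks with log2FC of 0.57 ± 0.19 (SE, adjusted p = 0.0394) and 0.97 ± 0.23 (SE, adjusted p = 0.0127). CD248, the endosialin of pericytes and fibroblasts, had 1.66 ± 0.93 (SE, adjusted p = 0.197) at 2 weeks and was DE with the block at 1 week (1.38 ± 0.45, adjusted p = 0.0349) and 2 weeks (2.5 ± 0.56, adjusted p = 0.00554), and CD82, a tetraspanin, lay between -0.34 and -0.03 at the 4 times.

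**Figure D3:**
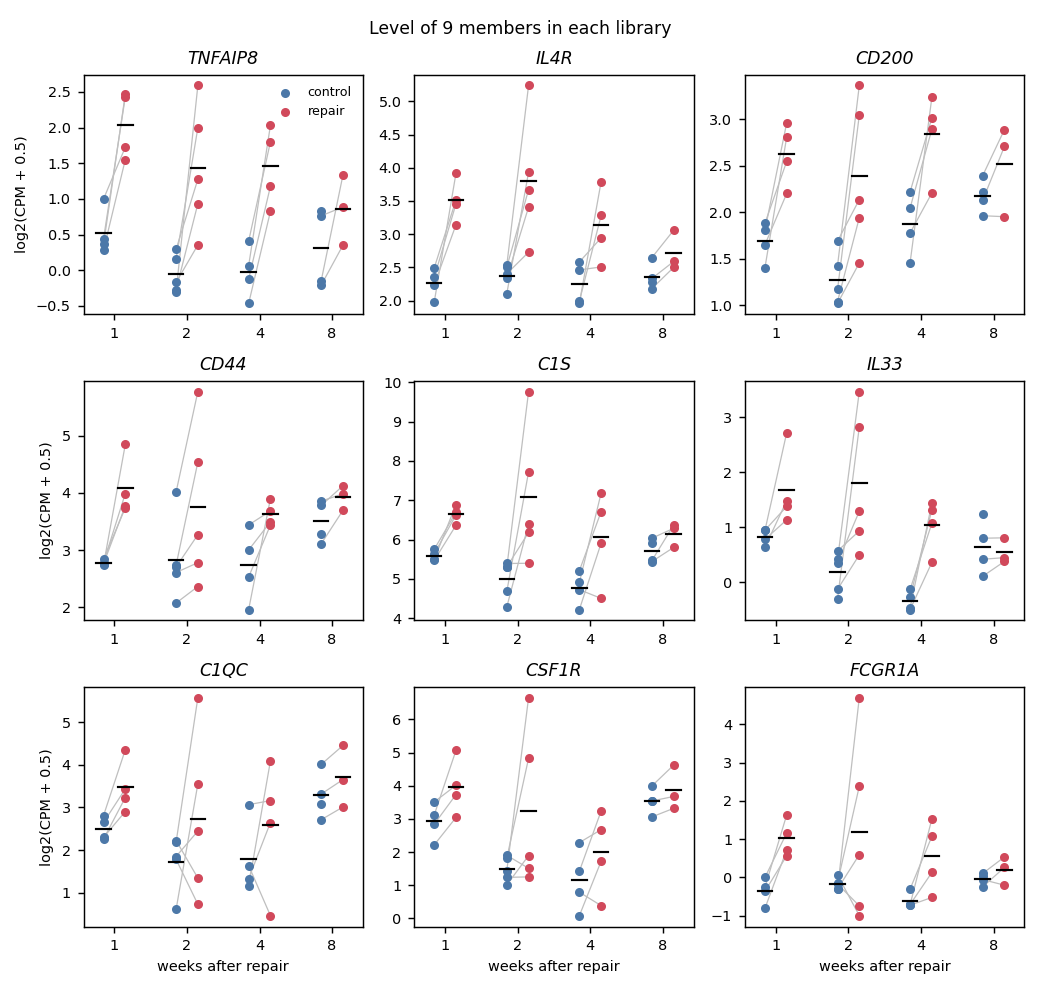
Each panel shows 1 of 9 members as log2(CPM + 0.5) against weeks after repair, with control libraries in blue, repair libraries in red, grey lines joining the shoulders of a rabbit and black bars for group means. TNFAIP8 and IL4R are separated at 1 and 2 weeks, whereas C1QC, CSF1R and FCGR1A span from within or below the control range to far above it at 2 weeks, where rabbit 59 reaches 47, 100.4 and 25.5 CPM.

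Averaged over the 4 time points, 17 of 51 members were DE and higher (8.33% of all genes tested) and 0 lower. Leaving out genes that passed 1 CPM in no control library, FCGR1A and TNFAIP8L3 among the 17, the count was 15 of 49 (5.62% of 11646 genes). In 16 to 26 of 33 fits that left out a library, C5AR1, CD248, IL1R2 and FCGR1A were no longer DE. By the adjusted p alone 30 were higher (22.4% of all genes) and 2 lower (17.7%), namely IRF4 and C1QL3. By source, 4 of the 17 found by identifier order and 13 of the 34 found through module 1 were DE, against 6.78% and 14.9% of the other genes so found. DE and lower were 0.688% of all genes. The smallest adjusted p was that of TNFAIP8, with a mean log2FC of 1.8 ± 0.30 (SE, adjusted p = 9.95e-05). TLR2 had 2.11 ± 0.46 (SE, adjusted p = 0.00115), IL4R 1.06 ± 0.20 (SE, adjusted p = 0.000321), and CD200 0.97 ± 0.18 (SE, adjusted p = 0.000296), just under the size limit. All 7 interleukin and interferon genes passed the adjusted p, 3 of them as DE. Of the 5 macrophage and dendritic cell genes, CD83, CD207 and CD209 were DE, while CSF1R and CD163 did not pass, with 1.14 ± 0.52 (SE, adjusted p = 0.0789) and 1.24 ± 0.82 (SE, adjusted p = 0.226). With the rabbit as a block 26 members were DE (10.5% of all genes), with edgeR 29 (11.3%) and with DESeq2 28 (11.2%), in each case among them CSF1R, CD163, C1QB and C1QC. The 9 added by the block were these 4, CD53, CD84, FCGR2B, TNFSF8 and TNFSF14. Without the repair libraries of rabbits 7 and 59, 9 were (6.14%).

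**Figure D4:**
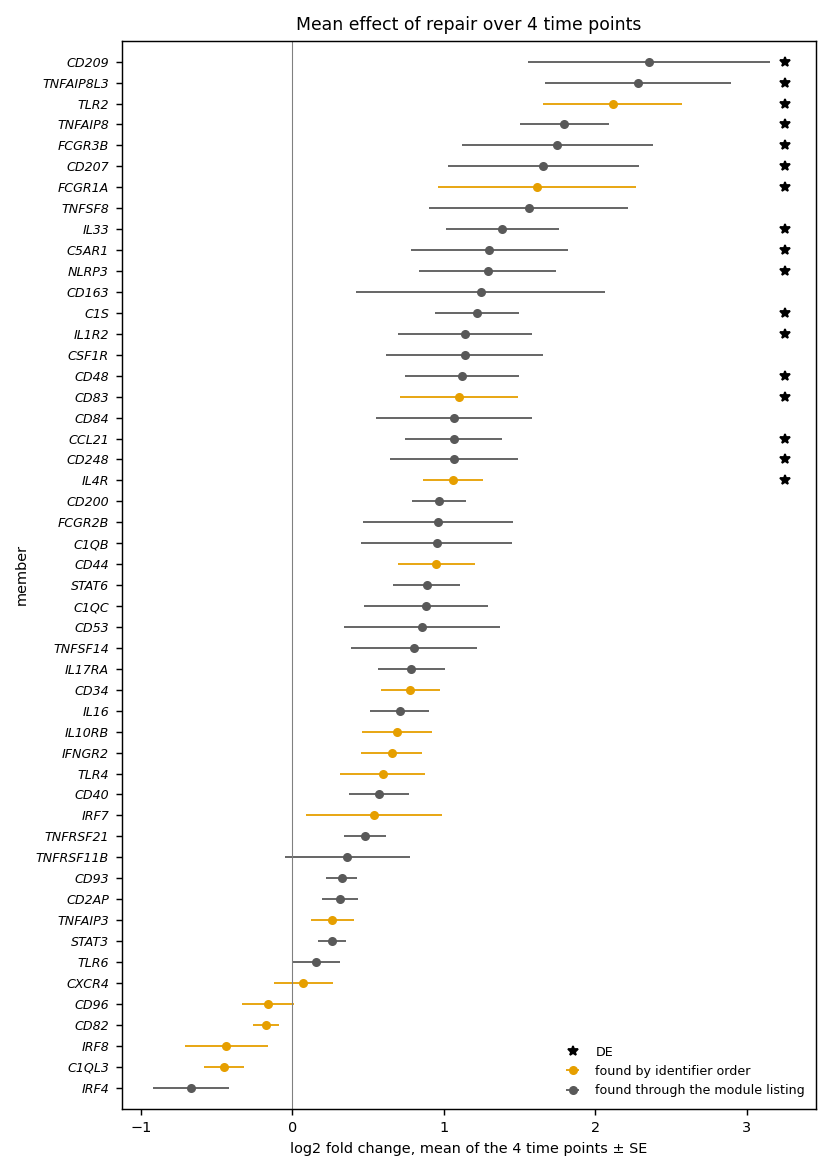
Points are the log2FC averaged over the 4 time points and bars the SE from the limma fit, for 50 members in order of size. Orange marks members found by identifier order, grey those found through module 1, and stars the 17 DE members. The means run from -0.67 for IRF4 to 2.35 for CD209.

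Whether the response was larger early than late was tested as the difference of 2 effects. The log2FC at 8 weeks was below that at 1 week for 46 of 51 members, and that at 4 weeks below that at 2 weeks for 39, but limma called 0 of 51 in either comparison, as did edgeR and DESeq2. Of all 12937 genes limma also called 0 in either comparison, so the 0 is not particular to the members. At an unadjusted p under 0.05 there were 4 members for 1 against 8 weeks (5.28% of all genes) and 1 for 2 against 4 weeks (2.77%). CD83, TNFRSF21 and IRF4 were among the 4. The effect on CD83 was larger at 1 than at 8 weeks by 2.39 ± 0.91 (SE, adjusted p = 0.827) on the log2 scale. Between 1 and 2 weeks limma called 0 members and 0 of all genes as well, with 1 member at an unadjusted p under 0.05, CD2AP (5.36% of all genes). In counts of direction, 34 members had a log2FC above 0 at all 4 times and 3 below, and the largest log2FC fell at 1 week for 10 members, at 2 weeks for 33, at 4 weeks for 6 and at 8 weeks for 2. These counts, like the 46 and 39 above, have no share of all genes beside them. At 2 weeks the median log2 ratio of members was 2.70 and 1.83 in rabbits 59 and 62, and 0.42, 0.11 and -0.06 in rabbits 60, 61 and 64. Weeks 1 and 2 also belong to different library series.

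Control muscle was also compared between the library series. Between the controls of 1 and 8 weeks and those of 2 and 4 weeks, 2 of 51 members passed the adjusted p, where 15.5% of all genes did (7.87% higher and 7.58% lower in the controls of 1 and 8 weeks), and 15 had an unadjusted p under 0.05, where 29.0% did. IL1R2, the decoy receptor for IL-1, was higher in the first by 2.61 ± 0.71 (SE, adjusted p = 0.0121) on the log2 scale, with 1.10 to 3.85 CPM against 0 to 1.09. IRF7 was lower in the first, with a log2 difference of -2.19 ± 0.64 (SE, adjusted p = 0.019). The median difference of the members was 0.68, against 0.03 over all genes. Time after repair, series and depth cannot be told apart in this comparison, and the contrasts of repair against control at one time stay within a series.

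Across the 16 repair libraries the members moved together. The deviations from the group mean had a median correlation of 0.69 between 2 members, which is a description over libraries that share their cell makeup and, for 38 members, the choice of module 1. The Fc receptors followed each other most closely, with a median r of 0.94 within the role. FCGR3B had fractional counts in 25 libraries, so part of its reads may be shared. The complement genes had 0.91 (from -0.65 to 0.97) and the macrophage and dendritic cell genes 0.89. In its group the repair library of rabbit 59 had a median log2 deviation of 2.45 over the members, and its part in these correlations was not tested. No correlation over all genes is given. C1QL3 went the other way, with a median r of -0.55 to the other members, and CD96 had -0.22.

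Other genes of the immune system with a symbol were read from lists outside the 51. By the adjusted p alone, 6.81% of all genes were higher at 1 week and 7.95% at 2 weeks, so 1 call in a list of 10 to 14 genes is near the share among all genes. At an unadjusted p under 0.05, in either direction, limma had 4302 of all 12937 genes at 1 week and 4622 at 2 weeks. Counts at that p below are to be read against these. Of 14 macrophage surface and lysosomal genes, 2 rose at 1 week, SIGLEC1, the sialic acid receptor of macrophages (log2FC 1.61 ± 0.47, adjusted p = 0.0259), and IGSF6 (3.48 ± 1.17, adjusted p = 0.0464), and 0 at 2 weeks by limma, with 6 at an unadjusted p under 0.05. Of 12 genes of innate receptor signalling, RIPK2, the kinase below NOD receptors, rose at 1 week (1.45 ± 0.37, adjusted p = 0.0137) and at 2 weeks (1.3 ± 0.38, adjusted p = 0.0254), with NOD1 (1.02 ± 0.31, adjusted p = 0.0286) and the adaptor BCL10 (0.93 ± 0.30, adjusted p = 0.0391) at 2 weeks. MASP1, the protease of the lectin pathway of complement, rose at 2 weeks (1.48 ± 0.32, adjusted p = 0.00847), as 1 of 4 complement genes outside the 51. Of 12 integrin and cytoskeleton genes of leukocytes 0 passed at 1 week, with 5 at an unadjusted p under 0.05, and 2 passed at 2 weeks, NCKAP1L and ARHGDIB. Of 11 genes of leukocyte signalling and the phagocyte oxidase, DOCK8 (1.48 ± 0.41, adjusted p = 0.0203) passed at 1 week and LYN (1.04 ± 0.33, adjusted p = 0.0346) at 2 weeks. Of 14 interferon response genes 1 passed at 1 week (PML, 0.61 ± 0.21, adjusted p = 0.0476) and 1 at 2 weeks (ZNFX1, 0.44 ± 0.15, adjusted p = 0.0476), and of 10 antigen processing genes 1 (PSME1) and 0, with 1 of 10 at an unadjusted p under 0.05 at 2 weeks. None of these 77 genes passed at 4 or 8 weeks with limma.

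Markers of other cells were read in the same fits. There, 4302 of all 12937 genes had an unadjusted p under 0.05 at 1 week and 4622 at 2 weeks. All 3 adipocyte markers rose at 1 week and 2 of 3 at 2 weeks, with SCD, a fatty acid desaturase, at a log2FC of 3.22 ± 0.67, adjusted p = 0.00426 and 3.6 ± 0.71, adjusted p = 0.0053. Of 7 fibroblast markers 0 passed at 1 week, with 4 at an unadjusted p under 0.05, and 4 rose at 2 weeks, with DPT at 2.52 ± 0.67, adjusted p = 0.0185. At 4 weeks SCD was the one marker that passed. Of 9 endothelial markers 0 passed at 1 week by limma, with 0 at an unadjusted p under 0.05, and 2 rose at 2 weeks, VWF by 0.84 ± 0.28, adjusted p = 0.0418 and ERG by 0.66 ± 0.23, adjusted p = 0.0495. Of 6 mural cell markers 0 passed at 1 week by limma, with 2 at an unadjusted p under 0.05, and MYLK, a myosin kinase of smooth muscle, rose at 2 weeks by 0.87 ± 0.24, adjusted p = 0.0224. Of 9 muscle fibre markers 2 fell at 1 week, LDB3 (-1.3 ± 0.31, adjusted p = 0.0101) and MYOM2 (-1.67 ± 0.46, adjusted p = 0.0198), and 2 at 2 weeks, LDB3 and TCAP. Their part in the changes of the 51 genes was not tested.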

How the data were processed

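RNA was measured in both supraspinatus muscles of 17 rabbits. Per the labels and the study's methods, the authors checked reads with FastQC, aligned them to rabbit build OryCun2.0 with STAR 2.5.1a and estimated counts per Ensembl gene with RSEM 1.3.0. The deposited values are these estimated counts (expected counts, which need not be whole), with no normalization, and they were rounded to whole numbers here only for edgeR and DESeq2.

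Gene symbols are those of human orthologs in the study's supplementary listings, which also gave the membership of module 1 but no value used here. One of these listings is shortened in the order of gene identifiers. Genes with CPM above 1 in at least 1 of 33 libraries were kept (12937), scaled by TMM and fitted over 8 groups (time by side) by limma-voom in R 4.3.3, using edgeR 4.0.16 and limma 3.58.1, with p-values adjusted by Benjamini-Hochberg over all genes tested. All tests are two-sided, and n is rabbits. Contrasts were repair minus control at each time, their mean, 3 differences between times, and the controls of 1 and 8 weeks minus those of 2 and 4 weeks. Each fold change is a model estimate, and that of a gene near 0 counts depends on the offset that voom adds. Figures were drawn with matplotlib 3.10.9. The fitting code was tested on simulated data with known changes.

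The left and right libraries come from one animal, so the rabbit number pairs them: deviations from the group means correlated by 0.0252 to 0.434 over 16 pairs (median 0.257), and for 15 of 16 repair libraries the own control was the closest. Alternatives were all 34 libraries, median-ratio size factors, 2 other filters, edgeR's quasi-likelihood test and DESeq2 1.42.0, the rabbit as block or as a correlation (0.174), sample quality weights, each time fitted alone, each library left out, the repair libraries of rabbits 7 and 59 left out, and members over 1 CPM in a control library alone (the last pair chosen after the data were seen).

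The members, their roles, the lists and the tests were chosen with earlier results of these data known. Values of every library were to be given for members DE at 1 time point without overlap between repair and control with a mean log2 CPM not below 0, and for C1QB, C1QC, C1S, C5AR1, FCGR1A, CSF1R, CD163, TLR4, CXCR4, IL33, STAT3, TNFRSF11B, CD34 and CD44. From each other list the gene with the smallest adjusted p at 1 and at 2 weeks was to be named. CD83, TLR2 and TNFAIP8L3 by library, and IGSF6, NOD1, BCL10 and ARHGDIB, were added after their values were seen. One member enters the counts and medians over the 51 but is not reported here by name. The authors' own fold changes and p-values were not used. Levels were not compared between genes, since gene lengths were not used.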

Additional observations from a re-analysis of the deposited data

Results flagged for a closer look

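Single libraries far from the rest of their group were sought for 17 members in 119 groups of 4 or 5 libraries, by Dixon's ratio of the gap to the whole range. For normally distributed values, chance passes this test in about 1 in 20 groups. The ratio was taken on CPM without a log scale, and the groups share libraries, so that rate need not hold here. The test picked out 19 values. The repair library of rabbit 59 at 2 weeks accounts for 9 of them, all on the high side. Its C1S, the C1 protease, was at 868 CPM with the next library at 210.2, and its IL4R at 37.3 with the next at 14.8. C1QB was at 9.84 there and C1QC at 47.03, with the next libraries at 2.94 and 11.2. C5AR1 was at 11.1 and FCGR1A at 25.5, against 2.05 and 4.72 in the next. CSF1R was at 100.4 and CD163 at 133, against 28 and 19.6. TNFRSF11B was at 9.9, with the next at 3.15. The same library had the highest sums of its group for macrophage (501 CPM), fibroblast (56573), endothelial (779), mural (663) and T cell markers (12.2), and their part in these values was not tested.

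In the repair library of rabbit 7 at 1 week, CD44 was at 28.3 CPM with the next at 15.4, and IL33 at 6.08 with the next at 2.29. C5AR1 was at 2.29 CPM in the repair library of rabbit 63 at 4 weeks, with the next at 0.364.

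The other libraries picked out were controls. Rabbit 59 had CD44 at 15.7 CPM and, on the low side, CXCR4 at 3.53 in its control at 2 weeks. Rabbit 67 had C1QC at 7.87 and FCGR1A at 0.311 in its control at 4 weeks, where rabbit 66 had CXCR4 at 22.3. At 8 weeks CXCR4 was at 12.99 CPM in the control of rabbit 3, and STAT3 at 87.4 in that of rabbit 4.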

How the results depend on the processing

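Counts of DE members are given with the share of all genes DE in either direction in brackets. Fits with all 34 libraries add back the repair library of rabbit 3, the one with the fewest counts. The 8 at 1 week (6.16%) became 2 with all 34 libraries (1.92%), 19 with sample quality weights (12.0%) and 13 with that time fitted alone (9.01%). The 6 at 2 weeks (5.77%) became 3 with all 34 libraries (2.33%), 36 with edgeR (15.5%), 37 with DESeq2 (15.7%), 0 with that time fitted alone (0), and 2 without the repair libraries of rabbits 7 and 59 (0.773%). At 4 weeks (0 members, 0.0618%) they became 2 with edgeR (1.75%), 4 with DESeq2 (3.03%) and 7 with quality weights (3.59%), and the mean over times (17, 9.02%) gave 29 with edgeR (11.9%), 28 with DESeq2 (11.9%) and 9 without the repair libraries of rabbits 7 and 59 (6.73%). The 2 members called between control series by the adjusted p alone (15.5% of all genes) became 1 with all 34 libraries (3.28%), 8 with no filter (26.5%), 7 with edgeR (17.3%), 10 with DESeq2 (20.4%), 21 with quality weights (31.0%) and 10 without the repair libraries of rabbits 7 and 59 (22.4%). The cause of these shifts was not tested. The other counts stayed within 1.5 times under these alternatives.

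Pairing by rabbit, with the rabbit as a replicate block, gave 18 DE members at 1 week (11.6% of all genes), 33 at 2 weeks (14.1%), 2 at 4 weeks (1.82%) and 26 for the mean (11.1%), and changed no other count by over 1.5 times. Pairing by the rabbit as a correlation gave 9 at 1 week (8.82%), 9 at 2 weeks (8.61%), 0 at 4 weeks (0.711%) and 18 for the mean (9.58%). The difference between control series has no blocked value, since it compares rabbits.

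Leaving out 1 library gave 2 to 14 members at 1 week, 2 to 22 at 2 weeks, 0 at 4 and 8 weeks, 10 to 23 for the mean (10 at 7.25% and 8.28% of all genes, 23 at 10.4% and 10.2%) and 2 to 7 for the control series. The 1-week count went to 3, 4, 2 and 4 when the control of rabbit 5, 6, 7 or 8 was dropped, to 5, 4 and 3 when repaired muscle of rabbit 5, 6 or 7 was, and to 14 when that of rabbit 59 was. The 2-week count went to 3 when the control of rabbit 60 or 62 was dropped, and to 2, 12, 10, 3 and 22 when repaired muscle of rabbit 59, 60, 61, 62 or 64 was. For the mean it was 10 when the control of rabbit 66 or repaired muscle of rabbit 59 was dropped, and 11 for repaired muscle of rabbit 7, 63 or 4. For the control series it was 7 and 4 when repaired muscle of rabbit 59 or 64 was dropped (22.3% and 16.1% of all genes). At the lowest and highest 1-week and 2-week counts 2.5% and 10.8%, and 0.767% and 12.4%, of all genes were DE. For the log2FC of single members under all alternatives, 2818 values kept their direction and side of the threshold, 64 lost the call, 73 gained one and 37 changed sign. With 3 to 5 libraries a group and several members near 1 CPM, small differences could not be seen at this depth, and a p that missed the threshold does not show that a member did not change.

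None of the values that changed sign was called in either fit (smallest adjusted p 0.374). TNFRSF11B at 1 week (0.01) went to -0.10 with all 34 libraries, -0.00122 with median-ratio size factors, -0.0423 with no filter, -0.36 with edgeR, -0.38 with DESeq2, -0.22 with the rabbit as a block, -0.00592 with that time fitted alone, -0.27 without the repair libraries of rabbits 7 and 59, and -0.79 to 0.31 with 1 library left out. FCGR1A at 2 weeks went to -0.43 and TNFRSF11B at 8 weeks to -0.10 with quality weights, STAT3 at 8 weeks to -0.82 with all 34 libraries, and TLR4 and IL33 at 8 weeks to 0.0195 and 0.14 with the block. With 1 library left out, C1QB ran from -0.57 to 1.17 and CXCR4 from -0.49 to 0.0317 at 4 weeks. At 8 weeks C1QB ran from -0.0916 to 1.10, C1QC from -0.00147 to 0.82, C5AR1 from -0.0674 to 0.75, CSF1R from -0.0652 to 0.67, CD163 from -0.0590 to 0.70, TLR4 from -0.16 to 0.0548, CXCR4 from -0.69 to 0.0024, IL33 from -0.33 to 0.17, STAT3 from -0.10 to 0.28 and TNFRSF11B from -0.22 to 0.82.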
